A study of Mus musculus with 8 samples.

Results

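Transcripts of 36 genes of the ATF4 program and of serine and one-carbon metabolism were examined in primary mouse myofibroblastic hepatic stellate cells (pMF-HSCs) treated with an inhibitor of O-GlcNAc transferase (OGT). The genes were taken by symbol from a list of reported ATF4 targets, regulators of the eIF2 arm and enzymes of these pathways, by a rule that names symbols and no measured value. The list was drawn up with earlier results of these data known, so the choice was not blind to them. All 36 were found among the 40840 genes of the deposited tables, and all 36 passed the filter of at least 10 counts over the 8 libraries that left 19963 genes for testing. Stellate cells lie along the liver sinusoid, store vitamin A when quiescent and turn into myofibroblasts that deposit collagen once they are cultured. Livers of male C57BL/6J mice, aged 15 to 18 weeks, provided the cells, which were gated on retinol autofluorescence and activated by 7 days of culture with serum. They then received vehicle (DMSO, control, n = 4) or 50 µM OSMI-1, a small-molecule OGT inhibitor (OGTi, n = 4), for 24 h. The study describes the 4 replicates as independent experiments, and control and OGTi cultures with the same replicate number were compared as pairs.

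ATF4 is a bZIP transcription factor whose translation rises when kinases that sense amino acid shortage, endoplasmic reticulum (ER) stress, heme deficit or viral RNA phosphorylate eIF2, an arm known as the integrated stress response. ATF4 dimerizes with C/EBP factors and induces genes for amino acid synthesis and uptake, for feedback on eIF2 and, under lasting stress, for cell death. Serine made from a glycolytic intermediate feeds folate-bound carbon units in mitochondria and cytosol, which serve in purine, thymidylate and methionine synthesis, and transsulfuration passes its carbon to cysteine and glutathione. In fibroblasts, serine and glycine synthesis also supplies the glycine of collagen. Because ATF4 is controlled in large part at translation, the transcript levels measured here say nothing of its protein level.

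Library totals ranged from 30068876 to 37372420 expected counts, and 23746 genes had a count in OGTi replicate 4 while 19035 to 20293 had one in the 7 remaining libraries. Individual libraries stood apart for subsets of genes. Of the genes with a mean of at least 1 CPM (counts scaled by library size), 408 lay at least 4-fold below the geometric mean of the other controls in control replicate 4, and 454 as far below that of the rest of their group in OGTi replicate 1, whereas the 6 remaining libraries had 12 to 94. Among the genes studied, these were Gpt2 and Vldlr in control replicate 4 and Vldlr and Aldh1l2 in OGTi replicate 1. Acta2, smooth muscle actin, the defining myofibroblast marker, was at 1310 to 2590 TPM in the 8 libraries (a measure of abundance that corrects for transcript length and library depth). The summed level of the 8 myofibroblast markers was 4940 to 9900 CPM in control and 5050 to 11600 in OGTi, and none of them was called changed. The collagen genes of this list were lower in all 4 pairs (Col1a1, Col1a2 and Col3a1, log2 fold changes of -0.85, -0.54 and -0.72) and Tagln and Timp1 higher in all 4 (0.53 and 0.52). OGTi replicate 1 stood apart here too, with Col1a1 at 56.2 TPM against 376 to 987 elsewhere. Of the 12 stellate cell markers, 3 were called lower (Hgf, Lrat and Pdgfrb), and their sum was 590 to 1080 in control and 447 to 619 in OGTi. The endothelial list of 7 genes summed to 3.16 to 6.72 in control and 1.01 to 2.19 in OGTi, with 2 called lower, and the macrophage list of 7 genes to 18.5 to 33.8 and 30.2 to 57.8, with 1 (Cd68) called higher. Of the 8 hepatocyte markers, 4 had enough counts to be tested and 1 (Cyp2e1) was called higher, with sums of 161 to 241 in control and 214 to 286 in OGTi. Among defining markers of other liver cells, Alb reached at most 0.17 TPM, Tat was at 0 in every library and Ptprc reached at most 0.11 TPM. Other genes of the same lists were well above 0 in both groups. Ass1, which held nearly all of the hepatocyte sum, measured 197 to 306 TPM over the 8 libraries, Cd68 11 to 69.4, Csf1r 2.22 to 6.66, Krt19 46.5 to 139 and Spp1 71.2 to 535. The cholangiocyte list of 6 genes summed to 200 to 437 in control and 128 to 515 in OGTi, with Sox9 called higher and Krt19 lower. The part of these marker differences in the results below was not tested, and in bulk RNA fewer cells of a type and less RNA per cell cannot be told apart.

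The promoter letters that ATF4 is known to read with C/EBP partners, the core of the C/EBP-ATF or amino acid response element, are shown for the genes that hold them, because the members were gathered as reported targets of this factor. The 8-base pattern TGATGNAA was searched on both strands in promoters from RefSeq (250 bases before to 50 after a start). A promoter was in the table for 32 of the 36 genes, and Cth, Eif4ebp1, Ppp1r15b and Aldh1l2 were not matched. The RefSeq table is built on GRCm38.p6, and each of the 37 promoter sequences of these 32 genes was found exactly once on its chromosome in GRCm39, whose coordinates are given here. The pattern was present in 8 of the 32 genes (25.0%), against 1219 of 27025 genes in the table (4.51%) and 1304 of all 32851 promoters of the same length (3.97%). It was held by 3 of the 8 genes called higher that had a promoter, by 5 of 23 that were not called and by the promoter of none of the genes called lower (0 of 1). Since the members were chosen as reported ATF4 targets, this share describes the choice. In the lines that follow, read 5′ to 3′ on the strand of the gene, capitals mark the 8 bases of the match, TGATGNAA itself or its reverse complement TTNCATCA. The 3 genes called higher come first.
Chac1: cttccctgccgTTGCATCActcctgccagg
Nupr1: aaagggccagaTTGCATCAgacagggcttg
Trib3: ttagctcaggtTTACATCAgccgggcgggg
Asns: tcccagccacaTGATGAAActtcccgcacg
Got1: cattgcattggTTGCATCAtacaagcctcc
Pck2: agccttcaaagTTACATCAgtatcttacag
Pycr1: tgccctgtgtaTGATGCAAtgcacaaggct
Vldlr: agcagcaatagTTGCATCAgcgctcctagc

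These windows of 30 bases lie at chr2:119181519-119181548 on the plus strand for Chac1, chr7:126224734-126224763 on the minus strand for Nupr1 and chr2:152185948-152185977 on the minus strand for Trib3 (GRCm39). Those of the genes that were not called lie at chr6:7693214-7693243 on the minus strand for Asns, chr19:43513128-43513157 on the minus strand for Got1, chr14:55777609-55777638 on the plus strand for Pck2, chr11:120534659-120534688 on the minus strand for Pycr1 and chr19:27194209-27194238 on the plus strand for Vldlr. The match in Trib3 began 14 bases after the annotated start, and the matches in the other 7 genes lay before it. The same letters, TTGCATCA, stood in Chac1, Got1, Nupr1 and Vldlr, and TTACATCA in Pck2 and Trib3. The 250 bases before the start are given for the Chac1 gene (chr2:119181473-119181722 on the plus strand) and the Nupr1 gene (chr7:126224643-126224892 on the minus strand), with the match in capitals, to show its place in the promoter.
Chac1: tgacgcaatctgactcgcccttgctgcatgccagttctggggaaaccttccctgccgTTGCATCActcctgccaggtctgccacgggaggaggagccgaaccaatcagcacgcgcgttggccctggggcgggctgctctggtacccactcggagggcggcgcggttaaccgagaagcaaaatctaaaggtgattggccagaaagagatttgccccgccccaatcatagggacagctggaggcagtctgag
Nupr1: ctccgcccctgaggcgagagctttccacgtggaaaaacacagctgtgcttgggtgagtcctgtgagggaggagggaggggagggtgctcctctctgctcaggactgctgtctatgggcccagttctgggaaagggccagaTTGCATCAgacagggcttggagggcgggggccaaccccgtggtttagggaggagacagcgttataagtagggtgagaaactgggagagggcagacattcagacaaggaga

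Across the 36 genes, 9 were called higher and 1 lower with OGTi (edgeR's quasi-likelihood test, Benjamini-Hochberg adjusted p of at most 0.05 over all genes tested). The share called higher was 25.0%, against 8.13% of all genes tested, and the share called lower was 2.78% against 10.2%. The same shares of all genes stand beside the counts by role given below, which cover sets of only 3 to 8 genes. The genes called higher were Atf4, Ddit3, Ppp1r15a, Chac1, Trib3, Nupr1, Gdf15, Cth and Psph, and the gene called lower was Mthfd1. The median log2 fold change was 0.49, against 0.01 over all genes, and 28 of 36 values were above 0. The sign of 8 members, none of them called, turned in some alternative fit. The median fell to 0.26 without replicate 4 (-0.05 over all genes), to 0.30 with library totals alone (-0.19) and, on the log2(TPM + 1) and log2(TPM + 0.1) scales, to 0.09 (-0.10) and 0.19 (-0.23). All 4 OGTi values lay above all 4 control values for 8 genes (22.2%, against 11.5% of all genes), and below them for 1 gene (2.78%, against 12% of all genes). The 26 genes that were not called had log2 fold changes between -0.80 and 0.85, leaving out Fgf23, which had no control counts.

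**Figure D1:**
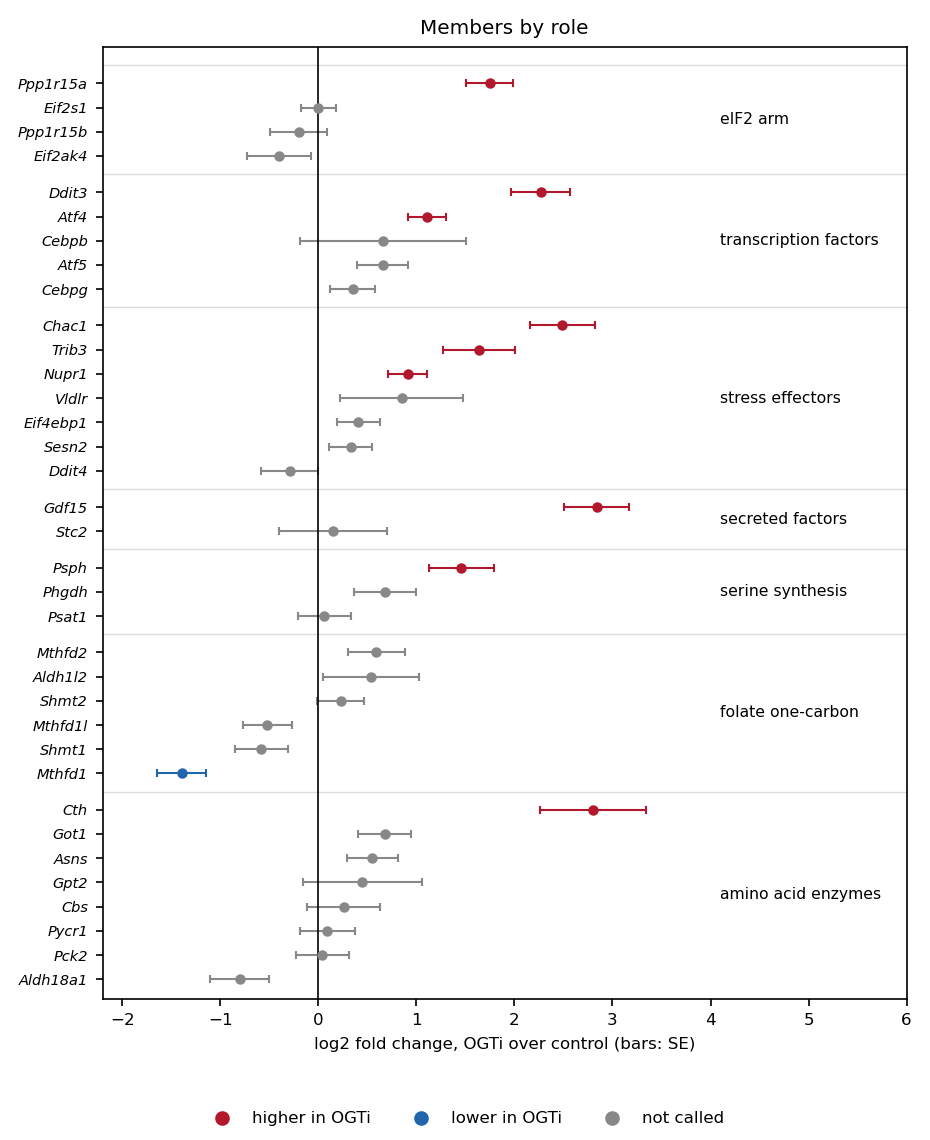
Log2 fold change of OGTi over control with its standard error for 35 of the 36 genes, grouped by role, Fgf23 being left out because its control counts were all 0. Red marks genes called higher, blue the gene called lower and grey those not called, and the values run from -1.39 for Mthfd1 to 2.84 for Gdf15.

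Levels per length differed widely among the members. In TPM, Nupr1 had the highest mean in both groups, at 1250 ± 316 (SD, n = 4) in control and 1870 ± 439 with OGTi. Ddit3 followed with OGTi at 1620 ± 598 against 405 ± 100 in control, where Eif4ebp1 averaged 470 ± 207. Those ranges touch, so the order of Nupr1 and Ddit3 with OGTi is not resolved by their spread. The serine synthesis transcripts Phgdh and Psat1 averaged 230 and 117 TPM in control, whereas the stress genes Trib3, Chac1, Atf5 and Cebpg averaged 24.4, 12, 8.64 and 3.97, and Cth 6.36. All further values are CPM scaled by trimmed mean of M-values (scaled CPM), listed for replicates 1 to 4, and compare a gene between libraries.

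**Figure D2:**
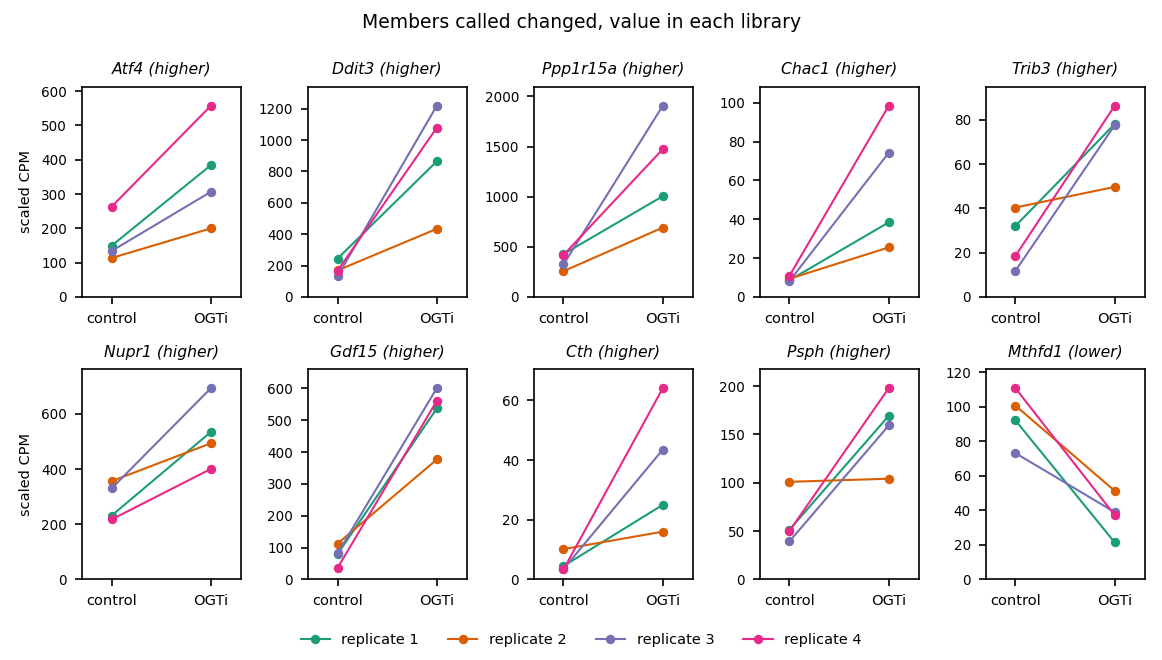
Scaled CPM in each library for the 10 genes called changed, with lines joining the control and OGTi cultures of a replicate and every axis starting at 0. All lines rise for the 9 genes called higher and fall for Mthfd1, and the replicate 2 line of Psph goes from 101.0 to 104.

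In the eIF2 arm, the feedback phosphatase subunit rose while the other 3 transcripts were not called. Ppp1r15a (chr7:45172340-45175692, GRCm39), the stress-induced GADD34 subunit that directs phosphatase to eIF2, measured 428, 257, 324 and 419 in control and 1005, 692, 1907 and 1474 with OGTi. No OGTi value overlapped the controls, and the fold was 3.38 (log2 fold change 1.75 ± 0.24 SE, edgeR adjusted p = 0.00123). Ppp1r15b, the constitutive counterpart of that subunit, had a log2 fold change of -0.20 ± 0.29 (adjusted p = 0.689). Eif2s1, which encodes the eIF2 subunit that is phosphorylated, ranged from 269 to 327 in control and from 247 to 350 with OGTi (0.00 ± 0.18, adjusted p = 0.995). Eif2ak4, the kinase GCN2 that responds to uncharged tRNA, measured 14.3, 13.6, 15.1 and 14.1 in control and 4.48, 12.0, 12.3 and 19.6 with OGTi. The OGTi values of Eif2ak4 scattered on both sides of the controls, with replicate 1 the lowest (-0.40 ± 0.33, adjusted p = 0.456). The value rested on single libraries, being 0.00 without replicate 1 and -0.69 without replicate 4.

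Other genes of the eIF2 machinery were called lower or not called. Of 16 genes for eIF2 kinases, eIF2 and its exchange factor eIF2B, none was called higher and 3 were called lower, with a median log2 fold change of 0.07. Those lower were Dele1, a mitochondrial protein that relays stress to the kinase HRI (-1.69 ± 0.22, adjusted p = 0.000968), Eif2ak2, the RNA-activated kinase PKR (-1.08 ± 0.26, adjusted p = 0.0178), and Gcn1, the ribosome-bound activator of GCN2 (-0.70 ± 0.22, adjusted p = 0.0497). Eif2ak3, the ER kinase PERK, had 0.17 ± 0.27 (adjusted p = 0.718), and Eif2ak1, the kinase HRI, 0.15 ± 0.20 (adjusted p = 0.668).

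Among the 5 transcription factors, Atf4 and Ddit3 were called higher. Atf4 (chr15:80139372-80141745) measured 149, 114, 134 and 263 in control and 384, 199.9, 307 and 558 with OGTi. The highest control, replicate 4, lay above the OGTi value of replicate 2, so the groups overlapped, but each OGTi culture exceeded its own control. The smallest difference within a pair was 0.82 on the log2 scale, in replicate 2, and the fitted fold was 2.16 (1.11 ± 0.19, adjusted p = 0.00339). Ddit3 (chr10:127124268-127132163), which encodes CHOP, a C/EBP relative that acts downstream of ATF4 in stress-induced death, measured 245, 169, 133 and 167 in control. With OGTi it measured 865, 434, 1219 and 1079. The groups did not overlap, with replicate 2 the lowest OGTi value, and the fold was 4.82 (2.27 ± 0.30, adjusted p = 0.00109).

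The 3 other factors were not called. Atf5, an ATF4 relative also controlled at translation, measured 6.82, 8.83, 7.34 and 7.76 in control and 17.4, 12.5, 8.36 and 11.9 with OGTi. It was higher in all 4 pairs (0.66 ± 0.26, adjusted p = 0.105). Cebpg, a C/EBP partner of ATF4, was also higher in all 4 pairs, from 7.99 to 11.2 in control and from 9.27 to 17.4 with OGTi (0.35 ± 0.23, adjusted p = 0.320). Cebpb, another C/EBP factor, was listed at very low values, with 71 counts over all libraries, at 0.154, 0.197, 0.336 and 0.0811 in control and 0.546, 0.376, 0.0929 and 0.226 with OGTi. At these counts a change in Cebpb could not be resolved (0.66 ± 0.85, adjusted p = 0.654), and whether the quantification caught all reads of this intronless gene was not tested, so the values may not give its level.

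Stress effectors gave 3 genes called higher of 7. Chac1 (chr2:119180757-119184866), an enzyme that degrades glutathione, measured 8.62, 9.37, 8.19 and 10.9 in control. In OGTi cultures it measured 38.4, 25.5, 74.2 and 98.4. The controls lay close together while the OGTi values spread widely, and all lay above the controls (fold 5.64, 2.49 ± 0.33, adjusted p = 0.00103). Trib3 (chr2:152179337-152191958), a pseudokinase induced by ATF4 and CHOP that feeds back on both, measured 32.1, 40.4, 11.8 and 18.5 in control and 78.1, 49.7, 77.6 and 86.4 with OGTi. Replicate 2 held both the highest control and the lowest OGTi value of Trib3, without overlap (fold 3.11, 1.64 ± 0.37, adjusted p = 0.013). This call was lost without replicate 3 (1.27, adjusted p = 0.0568) and without replicate 4 (1.43, adjusted p = 0.0725). Nupr1 (chr7:126222414-126230033), a small chromatin-associated stress protein, measured 231, 356, 329.7 and 217 in control and 535, 494, 693 and 400.4 with OGTi. Its groups did not overlap but came close (fold 1.88, 0.91 ± 0.20, adjusted p = 0.0101), and the call was lost without replicate 3 (0.86, adjusted p = 0.0611).

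The other effectors were not called. Eif4ebp1, a repressor of cap-dependent translation, had a log2 fold change of 0.41 ± 0.22 (adjusted p = 0.237). Sesn2, a leucine-sensing inhibitor of mTORC1, had 0.33 ± 0.22 (adjusted p = 0.339), with its highest value, 121, in OGTi replicate 4 and 79.2 in the control of the same replicate. Ddit4, the mTORC1 inhibitor REDD1, was low throughout, from 2.55 to 8.73 in control and from 3.07 to 5.80 with OGTi (-0.29 ± 0.29, adjusted p = 0.544). Vldlr, a lipoprotein receptor, measured 5.17, 10.7, 7.96 and 1.51 in control and 2.61, 8.40, 23.7 and 15.95 with OGTi. Its pairs went in both directions (0.85 ± 0.63, adjusted p = 0.402), and 2 libraries that stood apart pulled its value to either side, to 0.09 without replicate 4 and 1.51 without replicate 1.

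Of the secreted factors, Gdf15 had the largest fold change of the 10 called genes, within its error of that of Cth. Gdf15 (chr8:71082038-71091537), a stress hormone of the TGF-β superfamily that acts on appetite through the hindbrain, measured 79.6, 112, 81.8 and 35.8 in control. With OGTi it measured 537, 377, 601 and 561. The groups lay far apart in every pair, and the fold was 7.14 (2.84 ± 0.33, adjusted p = 0.000589). Stc2, a secreted glycoprotein, stayed between 1.03 and 3.82 in all libraries (0.15 ± 0.55, adjusted p = 0.888). Fgf23, a phosphate-regulating hormone made mainly by bone, had 0 counts in all 4 controls and 2, 0, 0 and 14 counts with OGTi. Against a floor of 3 counts over the control group, the 16 counts are at least 5.33-fold higher, but 14 of them came from OGTi replicate 4, the library with the most detected genes, and the gene was not called (adjusted p = 0.189). Floors cover counting error only.

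Of the 3 serine synthesis genes, 1 was called higher. The pathway runs from Phgdh through Psat1 to Psph, and only the last passed the test. Psph (chr5:129841925-129864513), the phosphatase that releases serine, measured 51.5, 101.0, 39.4 and 50.1 in control and 169, 104, 159 and 198 with OGTi. Pairs 1, 3 and 4 differed by 1.72, 2.02 and 1.98 on the log2 scale, and pair 2 by 0.04 (fold 2.75, 1.46 ± 0.33, adjusted p = 0.0128). The call was lost without replicate 1 (1.37, adjusted p = 0.0541), without replicate 3 (1.27, adjusted p = 0.059) and without replicate 4 (1.29, adjusted p = 0.0688).

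Phgdh, the dehydrogenase of the first and committed step, measured 196, 426, 114 and 136 in control and 295, 275, 299 and 342 with OGTi. The control of replicate 2 exceeded every OGTi value, and the other 3 controls lay below all of them (0.68 ± 0.32, adjusted p = 0.174). Psat1, the transaminase between both, measured 173, 264, 102 and 130.0 in control and 191, 134, 153 and 178 with OGTi. Its groups overlapped fully (0.06 ± 0.27, adjusted p = 0.908).

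Of the folate enzymes, 1 was called lower and none higher, with a median log2 fold change of -0.14 over the 6 genes. Mthfd1 (chr12:76301984-76366588), the trifunctional cytosolic enzyme that interconverts folate-bound carbon units and supplies formyl groups for purine synthesis, measured 92.1, 101, 73.1 and 111 in control. With OGTi it measured 21.4, 51.3, 38.9 and 37.2. The highest OGTi value lay below the lowest control, and the level in OGTi was 2.62-fold lower (-1.39 ± 0.25, adjusted p = 0.00462). Mthfd1 is a long transcript, with an RSEM length of 3629 bases, and OGTi replicate 1, its lowest value, is a library with many genes far below the rest. After removal of each library's trend of relative level on transcript length its value was -1.16 (adjusted p = 0.00448), and without replicate 1 it was -1.15 (adjusted p = 0.0121).

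None of the mitochondrial folate enzymes was called. Mthfd2, the stress-inducible mitochondrial dehydrogenase and cyclohydrolase, measured 51.4, 69.9, 51.8 and 71.2 in control and 82.1, 48.9, 110.0 and 151 with OGTi. It was higher in 3 pairs and lower in pair 2 (0.59 ± 0.29, adjusted p = 0.185). Shmt2, which splits serine to glycine in mitochondria, measured 92.7, 162, 79.3 and 105 in control and 131, 110.3, 123 and 134 with OGTi (0.23 ± 0.24, adjusted p = 0.556). As for Phgdh, the control of replicate 2 was the highest of all 8 libraries. Mthfd1l, which yields mitochondrial formate, was lower in all 4 pairs without being called (-0.52 ± 0.25, adjusted p = 0.181). Without replicate 1 the value of Mthfd1l was -0.30. Shmt1, the cytosolic counterpart of Shmt2, was low, at 4.08 to 12.8 in control and 4.36 to 5.63 with OGTi (-0.58 ± 0.27, adjusted p = 0.181). Aldh1l2, a mitochondrial folate dehydrogenase, had 0.54 ± 0.49 (adjusted p = 0.507) and its lowest value, 6.23, in OGTi replicate 1. Without replicate 1 it was 1.06, and without replicate 4 it was 0.01.

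Of the 8 enzymes of other amino acids, 1 was called higher. Cth (chr3:157599868-157630739), cystathionine gamma-lyase, the transsulfuration enzyme that yields cysteine, measured 4.48, 10.2, 3.46 and 3.32 in control. With OGTi it measured 25.0, 16.01, 43.5 and 64.1. The control of replicate 2 stood above the other controls and its OGTi culture was the lowest of the treated ones, so the pair differences ran from 0.65 in replicate 2 to 4.26 in replicate 4 (fold 6.96, 2.80 ± 0.54, adjusted p = 0.00597). Cbs, the enzyme one step before Cth, was scarce, from 0.775 to 1.65 in control and 0.838 to 1.54 with OGTi (0.26 ± 0.37, adjusted p = 0.688).

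Asns, asparagine synthetase, a classical ATF4 target, measured 280.2, 458, 228 and 256 in control and 438, 347, 526 and 431 with OGTi. It was higher in 3 pairs and lower in pair 2, and was not called (0.55 ± 0.26, adjusted p = 0.170). Got1, the cytosolic aspartate transaminase, was likewise lower in pair 2 alone, with a log2 difference of -0.30 there and of 0.72 to 1.14 in the others (0.68 ± 0.27, adjusted p = 0.109). Pck2, mitochondrial phosphoenolpyruvate carboxykinase, measured 14.3, 39.5, 22.1 and 21.4 in control and 19.4, 21.1, 23.6 and 30.3 with OGTi. The OGTi values of Pck2 lay within the range of the controls (0.04 ± 0.27, adjusted p = 0.946).

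The proline and alanine enzymes were not called either. Pycr1, the mitochondrial reductase that completes proline, had 0.09 ± 0.28 (adjusted p = 0.874). Aldh18a1, which begins proline synthesis from glutamate, measured 74.2, 96.5, 85.2 and 103 in control and 19.1, 55.3, 81.3 and 76.6 with OGTi. It was lower in all 4 pairs (-0.80 ± 0.30, adjusted p = 0.0943), and without replicate 1, whose OGTi library held the lowest value, it was -0.43. Gpt2, the mitochondrial alanine transaminase, measured 14.1, 21.6, 19.3 and 1.92 in control and 6.15, 21.3, 21.7 and 21.2 with OGTi. The sign of Gpt2 rested on the control of replicate 4 (0.45 ± 0.61, adjusted p = 0.675), since without that pair it was -0.33, and without replicate 1 it was 1.06.

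**Figure D3:**
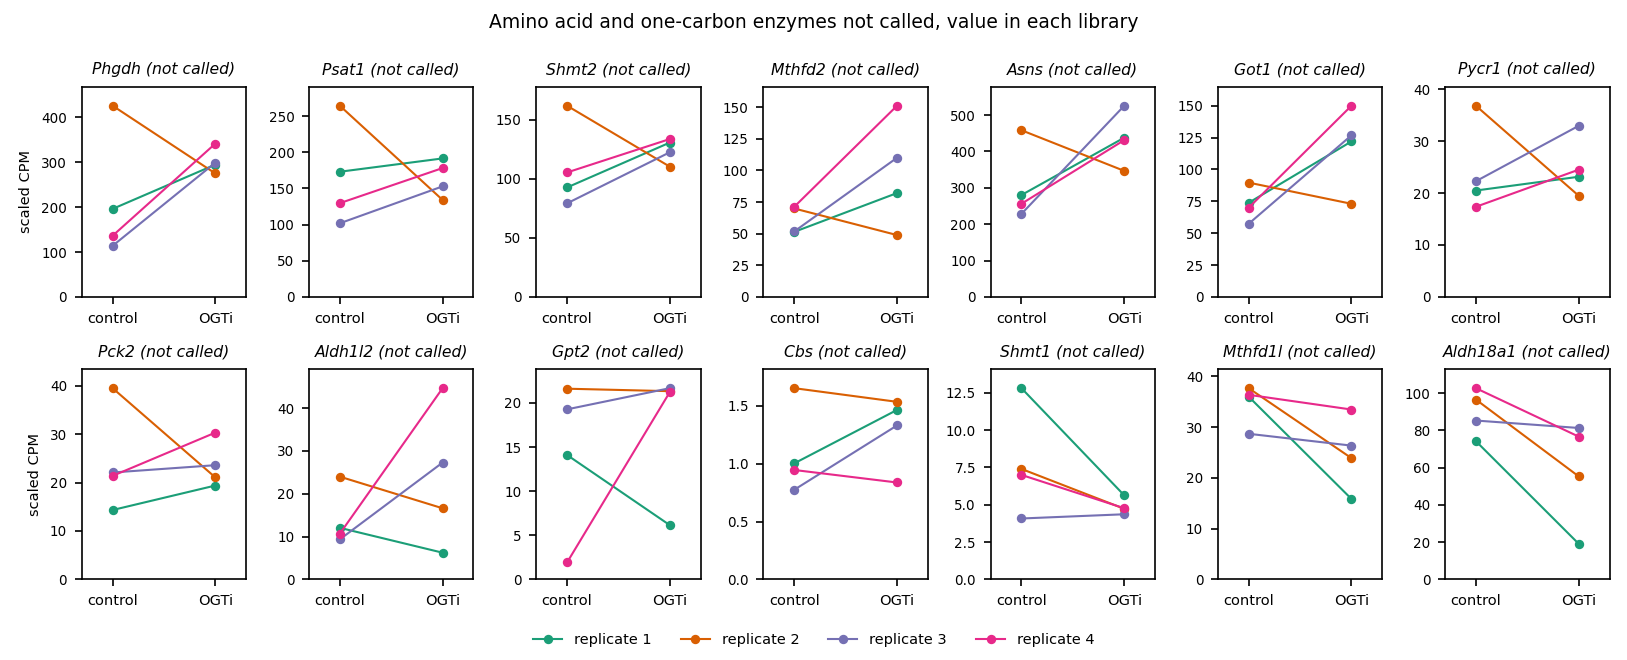
Scaled CPM in each library for the 14 of the 17 enzyme genes that were not called, with lines joining the control and OGTi cultures of a replicate and every axis starting at 0. The replicate 2 line goes down in all 14 panels, with the other 3 going up in 8 of them, down in 2 (Mthfd1l and Aldh18a1) and both ways in Aldh1l2, Gpt2, Cbs and Shmt1.

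The enzymes were mostly lower with OGTi in replicate 2. Of the 17 enzymes of serine, folate and amino acid metabolism, 15 were lower with OGTi in pair 2, against 6, 3 and 5 in pairs 1, 3 and 4. Their median log2 differences were 0.44, -0.55, 0.63 and 0.50 in pairs 1 to 4. The control of replicate 2 was the highest control for 13 of the 17, whereas it was the highest control for 29.5% of the 12525 genes with a mean of at least 1 scaled CPM. The OGTi library of replicate 2 was the lowest OGTi library for 9 of the 17 enzymes, and for 18.9% of the same 12525 genes. In pair 2, 53.1% of those genes were lower with OGTi, close to the 52.9% to 56.1% of the other pairs. All 5 transcription factor genes were higher in pair 2, with a median difference of 0.82. Of these, Cebpb had too few counts to resolve a change, and Cebpg and Atf5, not called, differed by 0.21 and 0.50. Smaller differences in pair 2 were not particular to the enzymes, however. Pair 2 also gave the smallest difference for Atf4, Ddit3, Chac1, Trib3, Nupr1 and Gdf15, and its control was the highest for 4 of the 7 stress effectors, whose median difference there was 0.30. Without replicate 2, 13 of the 36 genes were called higher, while the genes called higher among all tested went from 1623 to 1433. The 13 were the 9 named above with Asns (0.89, adjusted p = 0.037), Phgdh (1.13, adjusted p = 0.024), Mthfd2 (0.98, adjusted p = 0.0325) and Got1 (1.02, adjusted p = 0.027). The added genes were lower in pair 2, so leaving out that pair raised their values. Members called higher numbered 8 without replicate 1, 6 without replicate 3 and 7 without replicate 4. The pattern in pair 2 was noticed in the values and is given as a description, and the reason for it was not tested.

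**Figure D4:**
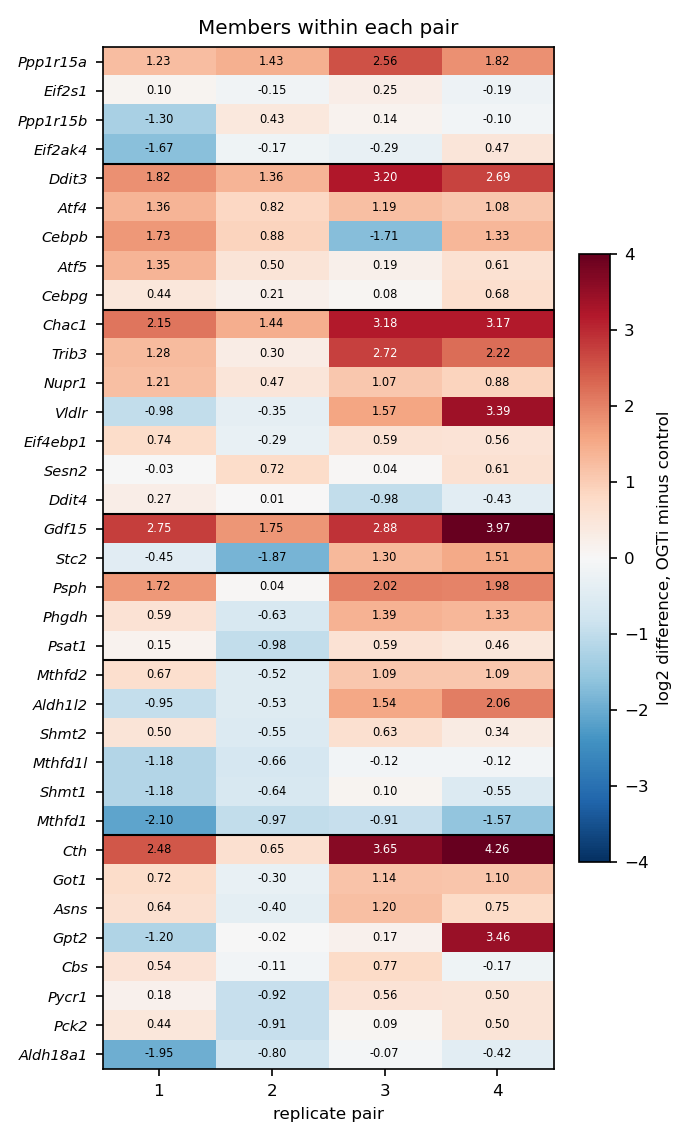
Log2 difference of OGTi minus control within each replicate pair for 35 of the 36 genes, with Fgf23 left out, in the order and role groups of the fold change plot. The enzyme rows are mostly blue in pair 2, where 15 of 17 are below 0, while Ddit3, Chac1 and Gdf15 are red in every pair.

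Over all pairs, 11 of the 36 genes were higher with OGTi in all 4 pairs, where 19.4% of all genes tested were. These were the 9 called higher with Atf5 and Cebpg. A further 3 were lower in all 4 pairs, Mthfd1, Mthfd1l and Aldh18a1, where 21.5% of all genes were.

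Genes near these in the same pathways showed both directions. Of 24 partners and relatives of ATF4 and of its targets, 6 were called higher and 1 lower, with a median log2 fold change of 0.52. Among those called, Atf3, a bZIP factor induced with CHOP, changed the most upwards (3.06 ± 0.30, adjusted p = 0.000294), and Trib2, a relative of Trib3, the most downwards (-3.09 ± 0.35, adjusted p = 0.000503). Adm2, a secreted peptide reported as an ATF4 target, had 2.53 ± 0.56 (adjusted p = 0.0117), and the AP-1 factor Fos had 1.67 ± 0.21 (adjusted p = 0.000876).

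Of 12 amino acid transporters reported as ATF4 targets, 3 were called higher and 2 lower (median 0.37). Slc3a2, the shared heavy chain of the cystine and large neutral amino acid carriers, went from 603 ± 158 to 2662 ± 491 (SD, n = 4, log2 fold change 2.16 ± 0.21, adjusted p = 0.000294). Slc7a11, the cystine carrier that pairs with it, had 1.67 ± 0.31 (adjusted p = 0.00518), and Slc1a4, a carrier of neutral amino acids that takes up serine, 1.19 ± 0.30 (adjusted p = 0.0207). Slc43a1, a carrier of large neutral amino acids, had -2.78 ± 0.45 (adjusted p = 0.00272).

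The tRNA synthetases reported as ATF4 targets gave none called higher and 2 lower of 12 (median 0.05), namely Tars (-0.89 ± 0.21, adjusted p = 0.0145) and Mars1 (-0.73 ± 0.19, adjusted p = 0.0263). The other folate cycle genes gave none called higher and 2 lower of 17 tested (median -0.34), where 10.2% of all genes tested were called lower. The 2 were Tyms, thymidylate synthase (-1.07 ± 0.21, adjusted p = 0.00676), and Slc19a1, the reduced folate carrier (-0.79 ± 0.21, adjusted p = 0.0269). In the methionine cycle, glycine cleavage and transsulfuration, 2 of 14 tested were called higher (median 0.05), Ethe1 (0.94 ± 0.20, adjusted p = 0.0105) and Sqor (0.75 ± 0.23, adjusted p = 0.0497), both mitochondrial enzymes of sulfide oxidation. Among 13 tested genes of proline, glutamate and related amino acids, 2 were called higher (median 0.27). Glul, glutamine synthetase, had 1.35 ± 0.21 (adjusted p = 0.00227), and Pycrl, the cytosolic proline reductase, had 0.70 ± 0.21 (adjusted p = 0.0431).

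Among 16 ER chaperones and targets of IRE1 or ATF6, the other arms of the ER stress response, 3 were called higher and none lower (median 0.42). Herpud1, a factor of ER-associated degradation, had 1.72 ± 0.39 (adjusted p = 0.0136). Hspa5, the chaperone BiP, had 1.59 ± 0.34 (adjusted p = 0.0102), and Dnajb9, a cochaperone of BiP, had 1.45 ± 0.24 (adjusted p = 0.00311). All the lists of neighboring genes are described by counts and medians, beside 8.13% called higher, 10.2% called lower and a median of 0.01 over all genes.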

How the data were processed

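RNA-seq libraries (stranded, polyadenylated RNA, paired-end) of 4 control and 4 OGTi cultures were used. Per the submitters' processing notes and the study's methods, the authors aligned reads with Bowtie2 2.3.5.1 to mm39 and quantified genes with RSEM 1.3.1. The deposited tables give expected counts, estimated per gene and not normalized, with TPM and gene lengths. The methods name a GENCODE annotation, while the transcript identifiers are RefSeq ones. How reads that fit several genes were divided affects near-identical copies. Among the members, 1 of 288 expected counts was fractional. The authors' comparison table was not used: it holds their counts and normalized counts (16 columns of per-sample values) and fold changes and p-values from DESeq2 1.36.0.

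Rounded expected counts entered edgeR 4.0.16 (R 4.3.3; genes with a total of at least 10 counts, TMM, glmQLFit and glmQLFTest with replicate as a block, Benjamini-Hochberg adjustment over 19963 genes, called at an adjusted p of at most 0.05). The biological coefficient of variation was 0.342. SE is that of the log2 fold change. The pairing follows the study's methods. Deviations from the group means of same-numbered libraries correlated at 0.197, 0.279, 0.202 and 0.43 across 12171 genes, and those of different numbers at -0.487 to 0.279. Alternatives were DESeq2 1.42.0, other scalings and filters, no block, removal of a length trend, limma 3.58.1 on log2(TPM + 1) and log2(TPM + 0.1), and each pair left out, 13 in all. The fit was checked on simulated counts that varied less between libraries and had no replicate effect. That check does not cover the spread of these data. Gene positions are those of GENCODE vM39 (GRCm39).

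Members, gene lists, marker lists and tests were chosen with earlier results of these data known. Values in every library are given for called members and for 15 core genes of the pathways, and from each of the 8 neighboring lists at most 4 called genes with the largest changes are named. Other members given by library (Atf5, Vldlr, Gpt2, Aldh18a1) and the kinases Eif2ak1 and Eif2ak3 were chosen after their values were seen.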

Additional observations from a re-analysis of the deposited data

Results flagged for a closer look

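Among 72 groups of 4 libraries (each member in control or in OGTi), 4 held a library whose gap to the nearest other, relative to the range of the group, exceeded Dixon's critical value. About 3.6 such groups are expected by chance. Sesn2 measured 121 scaled CPM in OGTi replicate 4, and the rest of its group 40.0 to 53.8. Cth measured 10.2 in control replicate 2, against 3.32 to 4.48 in the other controls. Gpt2 measured 6.15 in OGTi replicate 1, and the 3 remaining OGTi libraries lay between 21.2 and 21.7. Fgf23 measured 0.451 in OGTi replicate 4, where the highest of the rest was 0.0575.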

How the results depend on the processing

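Of the 10 called members, 7 (Atf4, Ddit3, Ppp1r15a, Chac1, Gdf15, Cth and Mthfd1) were called in the same direction under all 13 alternatives, and the 3 others (Trib3, Nupr1 and Psph) lost the call only when a pair was left out. Members called higher numbered 10 by DESeq2, which added Atf5 (0.71, adjusted p = 0.0464), and 9 in each other fit on all pairs. Members called lower numbered 2 with library totals alone (Aldh18a1 -0.99, adjusted p = 0.036), with no low-count filter (-0.81, adjusted p = 0.0232) and with limma on log2(TPM + 0.1) (-1.14, adjusted p = 0.0498), and 1 otherwise. With pairs left out, members called higher ranged from 6 (without replicate 3) to 13 (without replicate 2), genes called higher from 843 (without replicate 3; 894 without replicate 4) to 1433 and genes called lower from 1062 (without replicate 3, and without replicate 4) to 1744. Without the replicate block, 9 members were called higher and 1 lower, and 1459 genes higher and 1532 lower, so the block changed no member's call. Scaling moved the median of all genes from 0.01 to 0.13 (upper quartile) or -0.19 (library totals). Genes called higher and lower numbered 1623 and 2043 in the reported fit, 2051 and 1732 for upper quartiles, 1256 and 2911 for library totals alone, 1195 and 3456 with limma on log2(TPM + 1), and 1236 and 3473 on log2(TPM + 0.1). The members' median ran from 0.09 on log2(TPM + 1) to 0.72 without replicate 2.

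Signs turned against the reported one in 8 members, none of them called. Eif2s1, reported at 0.00, ran from -0.32 on both TPM scales to 0.17 with the length trend removed. With library totals alone Stc2 had -0.05, Psat1 -0.14, Pycr1 -0.11 and Pck2 -0.16. Without the block Psat1 had -0.03 and Pck2 -0.04. On log2(TPM + 1) and log2(TPM + 0.1), Stc2 had -0.14 and -0.19, Cbs -0.03 and -0.05, Psat1 -0.27 and -0.27, Shmt2 -0.10 and -0.10, Pycr1 -0.23 and -0.24, and Pck2 -0.28 and -0.30. Ppp1r15b had 0.06 with the length trend removed. Leave-one-out values ran for Ppp1r15b from -0.39 to 0.16, Stc2 from -0.33 to 0.83, Psat1 from -0.12 to 0.42, Pycr1 from -0.08 to 0.44, Pck2 from -0.11 to 0.37 and Gpt2 from -0.33 to 1.06. The causes were not tested. Cebpb (71 counts) and Fgf23 (16 counts) had too few counts to resolve a change, and filterByExpr left them untested, as did the fit without replicate 4 for Fgf23.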
